A study of Homo sapiens with 14 samples.

Results

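SKI peaks at the promoters of long noncoding RNA genes were taken from the peak list of SKI in unmodified HL60 cells, replicate 2, by chromatin immunoprecipitation followed by sequencing (ChIP-seq). A peak was a member when the authors' position class was tss and the biotype of its nearest gene was lincRNA, antisense or processed_transcript. By this rule 871 of the 14431 peaks of the list were members, 6.04% of all peaks and 11.5% of the 7566 peaks of the tss class, and they lay at 762 genes. The 4 peak lists used held 88872 peaks in all. HL60 is an established human acute myeloid leukaemia cell line, grown here in RPMI with serum. The lists were SKI in unmodified cells (replicates 1 and 2), SKI in CRISPR/Cas9 control cells (the library named CTR-1) and RUNX1 in unmodified cells. These cells carried no treatment in the labels, and the labels do not say whether the control cells are 1 clone. Libraries of SKI-deleted cells, histone marks, IgG or CEBPB were not analysed here, and no peak was therefore set against cells that lack SKI. All hg19 positions are those of the deposited lists.

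SKI is a nuclear corepressor without a strong DNA-binding activity of its own. It is brought to DNA by SMAD proteins and other factors and recruits NCOR, SIN3 and histone deacetylases, and it is known for holding back TGF-beta signalling. RUNX1 binds DNA itself, through a core site that contains TGTGGT, and is needed for blood cell formation. Long noncoding RNA genes are transcribed and spliced much like coding genes but encode no known protein. In the Ensembl biotypes used here a lincRNA gene lies between coding genes, an antisense gene overlaps a coding gene on the other strand, and a processed_transcript gene has no open reading frame and fits neither of the others. Their promoters include CpG-rich ones shared head to head with a coding gene and CpG-poor ones that stand alone.

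RefSeq promoter sequences of 4 genes with a member peak are shown for the letters and CpG content described later. They run from 250 bases before to 50 after the gene start in RefSeq, on build GRCh38.p14, and are given 5′ to 3′ on the strand of the gene. They were matched by gene symbol: the start that RefSeq gives need not be the transcript start of the deposited hg19 lists, so a window need not lie under the peak. In the first 2, whose SKI peak overlapped a RUNX1 peak, capitals mark TGTGGT or its reverse complement ACCACA. In the last 2, whose SKI peaks overlapped no RUNX1 peak, capitals mark each CpG. PCAT7 is at chr9:94554349-94554648 (plus strand), LINC01063 at chr3:196632538-196632837 (minus), CRNDE at chr16:54928837-54929136 (minus) and MIR17HG at chr13:91347437-91347736 (plus).
PCAT7: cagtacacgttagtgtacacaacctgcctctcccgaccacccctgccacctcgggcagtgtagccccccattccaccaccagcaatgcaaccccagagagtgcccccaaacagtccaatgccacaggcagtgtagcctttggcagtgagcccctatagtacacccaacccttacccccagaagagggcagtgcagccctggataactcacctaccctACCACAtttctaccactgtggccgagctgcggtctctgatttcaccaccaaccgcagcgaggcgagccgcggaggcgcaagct
LINC01063: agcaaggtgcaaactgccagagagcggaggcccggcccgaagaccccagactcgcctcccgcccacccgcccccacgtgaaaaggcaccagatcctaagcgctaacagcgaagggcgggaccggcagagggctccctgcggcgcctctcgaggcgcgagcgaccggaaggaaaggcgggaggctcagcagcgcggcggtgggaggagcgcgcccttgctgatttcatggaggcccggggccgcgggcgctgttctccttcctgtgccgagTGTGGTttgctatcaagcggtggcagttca
CRNDE: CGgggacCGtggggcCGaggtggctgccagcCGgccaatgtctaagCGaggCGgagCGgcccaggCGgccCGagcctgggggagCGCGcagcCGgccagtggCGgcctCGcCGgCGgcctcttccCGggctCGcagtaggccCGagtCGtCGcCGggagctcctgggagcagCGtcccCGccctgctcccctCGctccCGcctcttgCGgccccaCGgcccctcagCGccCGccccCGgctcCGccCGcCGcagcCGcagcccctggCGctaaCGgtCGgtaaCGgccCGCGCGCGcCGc
MIR17HG: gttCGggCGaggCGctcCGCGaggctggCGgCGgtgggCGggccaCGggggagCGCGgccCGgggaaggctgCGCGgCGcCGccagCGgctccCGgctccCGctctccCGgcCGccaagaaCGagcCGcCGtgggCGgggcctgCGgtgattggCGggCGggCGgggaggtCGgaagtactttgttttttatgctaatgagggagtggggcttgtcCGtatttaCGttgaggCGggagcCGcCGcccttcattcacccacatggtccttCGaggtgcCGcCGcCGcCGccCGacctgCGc

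The 4 sequences hold 11, 30, 44 and 42 CpG dinucleotides in that order. Counted from 0 at the first base of the gene, RUNX core letters begin at -33 (reverse strand) in PCAT7 and at 20 in LINC01063, and CRNDE and MIR17HG have none in this window. A match of letters is a description and not a binding site.

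The biotypes were split between 410 antisense peaks (47.1%, 95% Wilson interval 43.8 to 50.4), 376 lincRNA peaks (43.2%, 39.9 to 46.5) and 85 processed_transcript peaks (9.76%, 7.96 to 11.9). These and all later intervals cover counting error only. Most genes had a single member peak, 96 had 2 or more, and C20orf203 and RP1-151F17.1 had 4 each. Of the 871 peaks, at least 623 lay at genes known only by a clone-based name such as RP11-217B7.3, a count that leaves out forms such as XXbac-BPG252P9.10. The class also takes in genes named for a small RNA, which the authors' column lists under these biotypes: 21 peaks at 19 such genes, among them RMRP and RPPH1, the RNA parts of the RNase MRP and RNase P enzymes, and the U3 snoRNA genes SNORD3A to SNORD3D. Of those 21 peaks, 16 recurred in control cells, beside 72.2% of members and 72.3% of all peaks, and 2 overlapped RUNX1, beside 18.1% and 23.9%.

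The deposited distance of a member peak from the annotated transcription start site (TSS) had a median of -8 bp (quartiles -146 and 246.5 bp), with negative values upstream. The median absolute distance was 188 bp for members, against 95 bp for the 6297 peaks of the tss class at protein-coding genes. Within 250 bp of the TSS lay 57.4% of members (54.1 to 60.6) and 70.2% of coding promoter peaks (69.0 to 71.3). By biotype this share was 75.3% for processed_transcript, 62.2% for antisense and 48.1% for lincRNA peaks. The member farthest out was at RP11-353N4.1 (1848 bp, 112 tags), and the nearest noncoding peak left out, classed as intron, was one at MIR142 (-1401 bp, 50 tags).

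Members were about as strong as the coding promoter peaks. They had a median of 58 tags (quartiles 44 and 91, highest 1183), against 57 (42 and 83) at coding promoters and 56 over the whole list. Their median fold enrichment, the authors' ratio over background for a peak, was 10.57 (7.16 to 15.3), against 9.16 (6.69 to 13.2) and 10.35. Median width was 500 bp, against 512 and 472 bp. Tags followed width closely across members (Spearman rho 0.79, n = 871, given as a description), so a rank by tags favours wide peaks. The median fold enrichment was 11.21 for lincRNA, 10.15 for antisense and 8.98 for processed_transcript peaks.

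The noncoding gene with the most SKI tags was XXbac-BPG252P9.10, an antisense gene in the major histocompatibility region (chromosome 6, 30709500 to 30712620). Its peak was 3121 bp wide and held 1183 tags in unmodified replicate 2 at a fold enrichment of 77.05. In control cells the overlapping peak held 886 tags at 79.94, and the RUNX1 peak held 141 tags at 49.02, with the SKI and RUNX1 summits 11 bp apart. MIR142, listed as an antisense gene and known for the microRNA miR-142 of blood cells, came next (chromosome 17, 56409616 to 56411111). It had 675 SKI tags in unmodified replicate 2, 576 in control cells and 71 RUNX1 tags, the RUNX1 summit lying 636 bp away.

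RP3-402G11.25 on chromosome 22 (583 tags), RP11-317P15.4 on chromosome 1 (542 tags) and RP11-217B7.3 on chromosome 9 (495 tags) followed. At RP11-317P15.4 the fold enrichments were 81.16 in unmodified replicate 2, 76.56 in replicate 1, 56.35 in control cells and 28.60 for RUNX1, with summits of SKI and RUNX1 31 bp apart. At RP11-217B7.3 they were 43.20, 87.31 and 52.55 for SKI and 55.06 for RUNX1, with summits 344 bp apart. At RP3-402G11.25 the summits of SKI and RUNX1 were 1142 bp apart. All 5 genes ranked above the 99th percentile of tags in the list.

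RP5-855F16.1, a lincRNA gene on chromosome 7 (10979900 to 10980605), had the highest fold enrichment of all members. Its peak was 706 bp wide, with 383 tags at 113.21 in unmodified replicate 2, 829 tags at 85.33 in replicate 1, 436 tags at 94.83 in control cells and 112 RUNX1 tags at 46.00. The summits of SKI and RUNX1 were 9 bp apart. RP11-337C18.8 (452 tags), KANSL1-AS1 (436 tags) and RP3-402G11.25 were the members of the leading 20 with a coding TSS found within 1000 bp, those of PRKAB2, a subunit gene of the energy sensor AMPK, KANSL1, a gene of a histone acetyltransferase complex, and TRABD. At RP11-337C18.8 no RUNX1 peak overlapped, and at KANSL1-AS1 the RUNX1 summit lay 1240 bp from that of SKI.

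The rest of the leading 20 genes were RP11-277L2.3 (451 tags), RP11-753H16.4 (379), RP11-443B7.3 (354), HCG20 (353), KB-1732A1.1 (338), RP11-1079K10.3 (332), RP11-17J14.2 (326), RP11-10N16.3 (306), RP6-206I17.1 (297), RP11-154H12.3 (293), RP11-809C9.2 (289) and MIR17HG (270). Summits of SKI and RUNX1 lay 15 to 52 bp apart at RP11-753H16.4, HCG20, RP11-1079K10.3, RP11-10N16.3 and RP11-809C9.2. At RP11-277L2.3, RP11-443B7.3 and RP11-154H12.3 they lay 599, 336 and 1042 bp apart. All 20 overlapped a peak of the control cells, 15 overlapped a RUNX1 peak and 12 were lincRNA genes. Over all peaks of the list 72.3% had a control-cell peak and 23.9% a RUNX1 peak. The 20 were picked by tags, and both shares rise with tags, to 97.2% and 35.8% in the 218 members with the most. Other rankings gave partly different leaders: 8 of the 20 were also among the 20 of highest fold enrichment, and 11 among the 20 with most tags per kb of peak. RP11-337C18.8, RP11-277L2.3 and RP6-206I17.1 lie among the 12 members found between 143743232 and 149764828 of chromosome 1, next to the centromere, a part of the genome with near-identical copies where reads can be shared between copies.

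**Figure D1:**
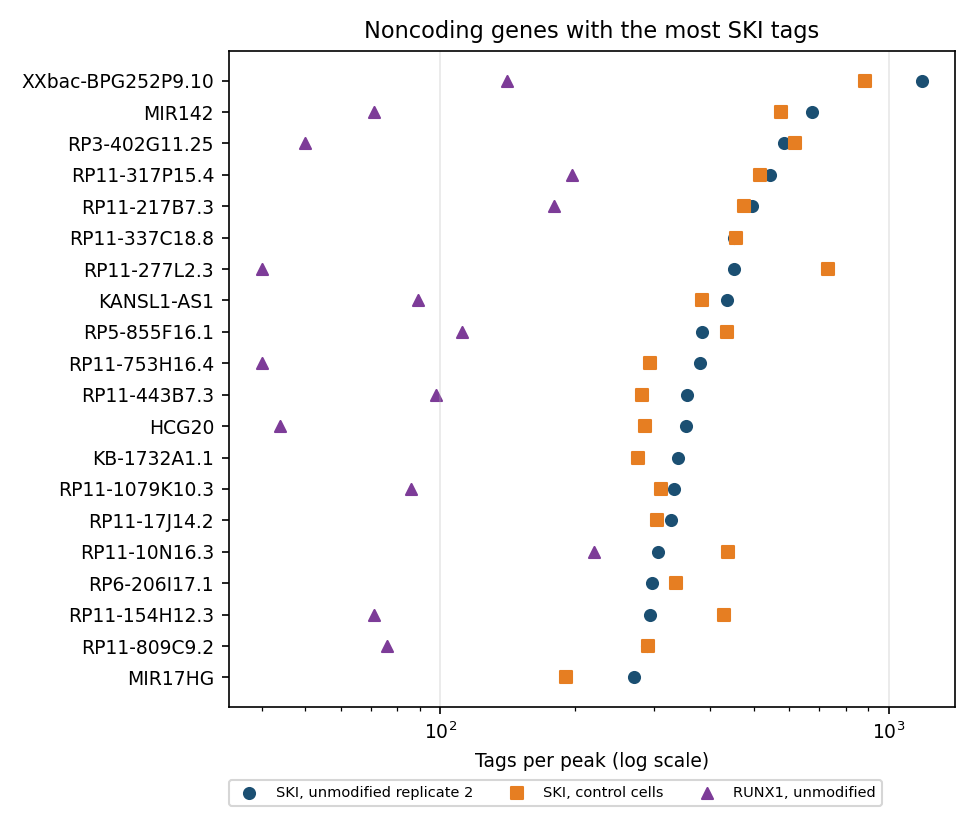
Tags per peak (log axis) at the 20 noncoding genes with the most SKI tags in unmodified HL60 cells, replicate 2, with the overlapping peaks of SKI in control cells and of RUNX1; 1 library per symbol. All 20 have a control-cell peak and 15 have a RUNX1 symbol, which lies to the left of both SKI symbols in each case. Among all members 72.2% have a control-cell peak and 18.1% a RUNX1 peak, and among all peaks of the list 72.3% and 23.9%. Both shares rise with tags, by which the 20 were picked.

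The share of members that recurred in the other SKI lists lay near that of coding promoter peaks. A peak of the control cells overlapped 629 members (72.2%, 69.1 to 75.1), beside 70.4% of coding promoter peaks and 72.3% of all peaks of the list. A peak of unmodified replicate 1 overlapped 839 members (96.3%, 94.9 to 97.4), beside 97.3% and 97.4%. Both other SKI lists held 601 members (69.0%, from 65.85 to 71.98), beside 67.9% of coding promoter peaks and 70.1% of all peaks. In neither were 4 members, all lincRNA (0.459%), beside 0.238% and 0.423%. The member share near the background in each case is no result about noncoding promoters. The difference in control cells was 1.85 percentage points (interval -1.41 to 4.94).

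Recurrence in control cells followed the strength of the peak. Members were ranked by tags and cut into 4 groups of about equal size. Recurrence was 45.4% in the group with the fewest tags, 65.1% and 81.1% in the middle groups and 97.2% in the group with the most. Coding promoter peaks gave 46.7%, 60.1%, 78.8% and 95.9%. Members with a control-cell peak had a median of 70 tags and the 242 without had 44. Noncoding promoters made up a similar part of the tss class in each SKI list: 11.5% in unmodified replicate 2, 11.5% in replicate 1 (2220 peaks) and 11.3% in control cells (762 peaks). Of RUNX1 peaks of the tss class they made up 16.0% (14.1 to 18.1; 210 peaks).

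The gene named for a region was not always the same between lists. Where a control-cell peak overlapped a member, it was assigned to the same gene in 549 of 629 cases (87.3%) and to a protein-coding gene in 67 (10.7%). In unmodified replicate 1 these were 689 (82.1%) and 131 (15.6%) of 839. For coding promoter peaks the same gene was named in 95.7% and 94.6%. At PRKAB2 and RP11-337C18.8, for example, the peak of unmodified replicate 1 (802 tags) was assigned to PRKAB2 and that of control cells (456 tags) to RP11-337C18.8.

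Among the 601 members in all SKI lists, the order of fold enrichment was partly kept. Spearman's rho was 0.67 between the 2 unmodified lists, 0.61 between unmodified replicate 2 and control cells, and 0.66 between unmodified replicate 1 and control cells, across peaks that share their libraries. At the 4275 coding promoter peaks in all SKI lists the values were 0.66, 0.56 and 0.67.

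**Figure D2:**
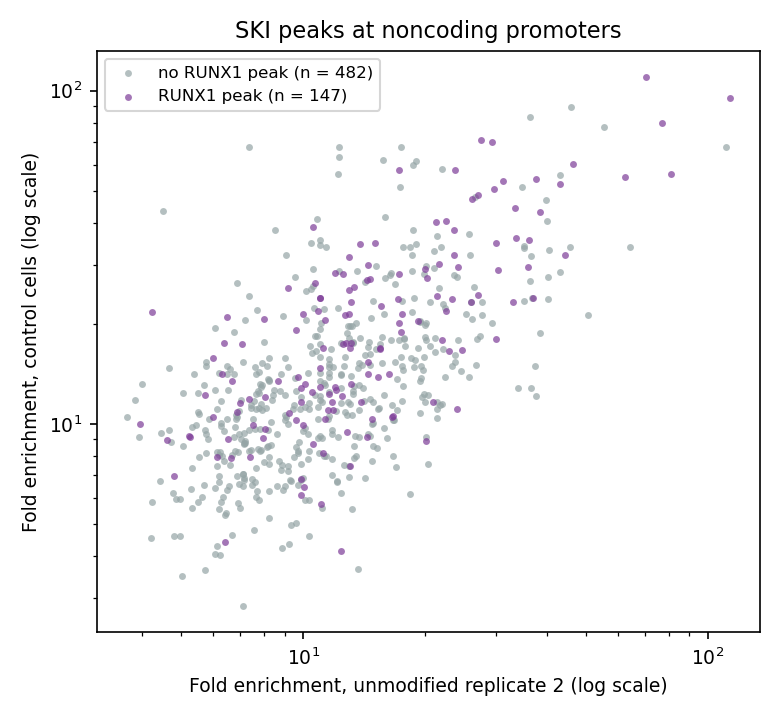
Fold enrichment of the 629 member peaks with an overlapping peak in control cells, in unmodified replicate 2 (x, log axis) and in control cells (y, log axis); each point is 1 peak of unmodified replicate 2. The 147 points with a RUNX1 peak lie in the same rising cloud as the 482 without, and the peak farthest to the right, at 113.21, is that of RP5-855F16.1.

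The members missing from unmodified replicate 1, the longest list, were high in tags and low in fold enrichment. The 32 had a median of 83 tags and a median fold enrichment of 7.80, against 58 and 10.57 for all members, and 14 of them lay below the lower quartile of the members' fold enrichment, 7.16. Of the 87 members in the top decile of tags, 10 (11.5%) had no peak there, against 2 of the 88 in the bottom decile (2.27%). These shares were 9.52% and 0.794% for coding promoter peaks and 8.73% and 0.900% for all peaks, so the pattern was close to that of the whole list. XXbac-BPG252P9.10, MIR142, KANSL1-AS1 and RP11-443B7.3 were among the missing members, and so were BZRAP1-AS1, DLGAP1-AS1 and DLGAP1-AS2. That list numbers its rows after a longer table, and the numbers rise along each chromosome with gaps. Of the 32 missing members, 28 were present in control cells, beside 72.2% of members and 72.3% of all peaks, a share that rises with tags. Of the 32, 31 lay where the row number skips, in 17 stretches, and RP11-510I5.4 was the exception. At XXbac-BPG252P9.10 the row number steps from 60227 to 60229, and at MIR142 and BZRAP1-AS1 from 30754 to 30756. Over all neighbouring peaks of that list at least 6.46 kb apart, the shortest such stretch, 34.9% had a skip. At coding promoters 169 of 171 missing peaks lay at a skip, so this is shared with them.

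A RUNX1 peak overlapped 158 members (18.1%, 15.7 to 20.8), beside 11.3% of coding promoter peaks and 23.9% of all peaks of the list. The member share was 6.80 percentage points above that of coding promoters (interval 4.25 to 9.60, from the Wilson limits) and below that of the whole list. No test was made over regions, which are not replicates, and RUNX1 and the control cells have 1 list each. Among peaks present in all SKI lists the shares were 22.1% (133 of 601) and 14.7% (629 of 4275). By biotype the share was 20.5% (16.7 to 24.8) for lincRNA, 17.1% (13.7 to 21.0) for antisense and 12.9% (7.38 to 21.7) for processed_transcript peaks, intervals that overlap.

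Where both were present, their summits lay a median of 35.5 bp apart (quartiles 15 and 105.75 bp), and 39.5 bp at coding promoters. The RUNX1 peaks at members had a median fold enrichment of 19.22 and those at coding promoters 18.52. Members with RUNX1 had a median of 90 SKI tags and those without had 55. The fold enrichments of SKI and RUNX1 rose together only weakly (rho 0.29, n = 158, a description across peaks).

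The RUNX1 share rose with distance from the TSS and with SKI tags, and was higher for members in each class. It was 11.4% (8.37 to 15.3) for members listed under 100 bp from the TSS, 17.2% (12.4 to 23.5) from 100 to under 250 bp, 22.6% (16.9 to 29.5) from 250 to under 600 bp and 25.98% (20.4 to 32.4) at 600 bp or more. Coding promoter peaks gave 7.92%, 10.9%, 13.5% and 21.3%. The intervals of both kinds of promoter overlap in each class except that from 250 to under 600 bp. In the 4 groups by SKI tags the members gave 8.26%, 12.8%, 15.7% and 35.8%, and coding promoter peaks 4.76%, 6.93%, 8.58% and 25.1%.

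**Figure D3:**
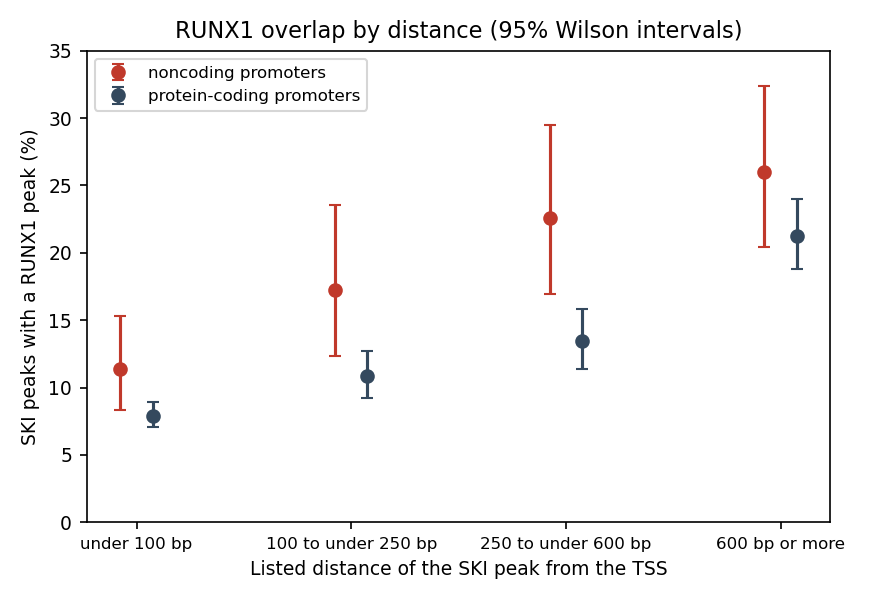
Percent of SKI peaks in unmodified replicate 2 that overlap a RUNX1 peak, by the deposited distance of the SKI peak from the TSS, at noncoding (871) and protein-coding (6297) promoters; bars are 95% Wilson intervals. Both kinds rise with distance, members from 11.4% to 25.98% and coding promoter peaks from 7.92% to 21.3%.

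**Figure D4:**
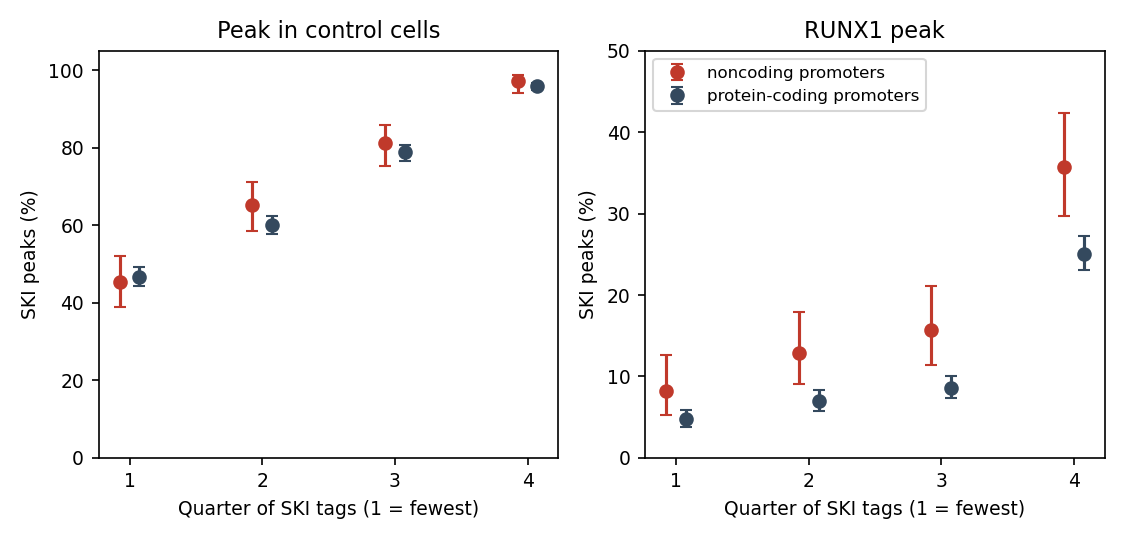
Percent of SKI peaks in unmodified replicate 2 with a peak in control cells (left) or a RUNX1 peak (right), in 4 groups by SKI tags within each kind of promoter; bars are 95% Wilson intervals. Recurrence is alike in both kinds (45.4% to 97.2% for members), while RUNX1 overlap is higher for members in each group, up to 35.8%.

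The member with the most RUNX1 tags was CTD-2231E14.8, an antisense gene on chromosome 19 (16250415 to 16251005). It had 333 RUNX1 tags at a fold enrichment of 77.10, and SKI tags of 120, 676 and 165 in unmodified replicates 2 and 1 and control cells, with summits 18 bp apart. A lincRNA gene of chromosome 17 (peak at 19064809 to 19065399) followed, with 232 RUNX1 tags at 136.90, the highest RUNX1 fold enrichment at a member, and SKI fold enrichments of 29.99, 128.75 and 18.03. RP11-10N16.3, BZRAP1-AS1, RP11-317P15.4, RP11-443B7.1, LINC01063, PCAT7, LINC00672 and RP11-217B7.3 made up the rest of the leading 10, with 179 to 220 RUNX1 tags. Their summits of SKI and RUNX1 lay 20 to 344 bp apart, except at BZRAP1-AS1 (1121 bp). At LINC00672 SKI reached 46.44, 115.89 and 60.08 and RUNX1 71.43, with summits 20 bp apart. At PCAT7 RUNX1 reached 79.71 and SKI 14.49, 53.95 and 15.33. These 10 peaks held 103 to 542 SKI tags, from the 82.4 to the 99.8 percentile of the SKI list.

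The 5 members of most tags that had no control-cell peak were XX-C283C717.1 (151 tags), CTD-2314B22.1 (122), AC002451.3 (118), NDUFA6-AS1 (98) and RP11-216B9.6 (95). Each had a peak in unmodified replicate 1, with fold enrichments of 28.16, 19.16, 42.91, 21.05 and 27.26 in that order. Beside this stand 96.3% of members and 97.4% of all peaks. None had a RUNX1 peak, beside 18.1% of members and 23.9% of all peaks, and 5 genes are too few to set against these shares.

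A protein-coding TSS within 1000 bp of the peak centre was found for 188 members (21.6%, 18.98 to 24.4), at 184 coding genes, and lay on the opposite strand in 179 of them. Such TSSs were rebuilt from the deposited distances, and a TSS nearest to no peak is missed, so the share is a lower limit. It was 31.7% for antisense and 10.9% for lincRNA peaks, and 17 of the 85 processed_transcript peaks had one. Members with a coding TSS this near overlapped RUNX1 in 8.51% of cases (16 of 188, 5.31 to 13.4), an interval that holds the 11.3% of coding promoter peaks. Members without one did so in 20.8% (142 of 683, 17.9 to 23.99). Recurrence in control cells was 73.9% and 71.7%, and median fold enrichment 9.53 and 10.98. Their listed distance from the noncoding TSS also differed, a median of 69.5 bp against 247 bp, and the part of that distance in the RUNX1 shares was not tested. Examples are TMPO-AS1 beside TMPO, FOXN3-AS1 beside FOXN3, TRAF3IP2-AS1 beside REV3L and DLEU2 beside DLEU1, which the deposited lists give as protein-coding.

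Of the 762 genes, 103 matched a RefSeq lncRNA promoter on GRCh38.p14 by symbol and chromosome, 13.5% of them, so what follows holds for named genes and not for the clone-named majority. A coding gene started on the opposite strand within 1000 bp at 31 of the 103 (30.1%, 22.1 to 39.5), 16 of them head to head, as with JARID2-AS1 and JARID2, a gene of a Polycomb subunit, LPP-AS2 and LPP, and LINC00677 and TNFAIP2. Of these 31 genes 2 had a SKI peak with RUNX1 (6.45%, 1.79 to 20.7), against 19 of the other 72 (26.4%, 17.6 to 37.6), intervals that overlap.

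Promoters of genes with a RUNX1 peak held fewer CpG in this matched set. The median number of CpG in the 300 bases was 5 (quartiles 3 and 11) for the 21 genes with a RUNX1 peak and 24 (13 and 35) for the 82 without. USP3-AS1 (52 CpG), MALAT1 and JAZF1-AS1 (37 each), LINC00471 (33) and LINC01063 (30) were CpG-rich genes with a RUNX1 peak at any of their SKI peaks. At MALAT1 the RUNX1 peak overlapped only the weaker SKI peak (48 tags) and not that of 124 tags. Over all RefSeq lncRNA promoters the median was 5, and over coding promoters 21. TGTGGT, on either strand, was present in 8 of the 21 (38.1%, 20.8 to 59.1) and 6 of the 82 (7.32%, 3.40 to 15.1), where 16.2% of lncRNA promoters and 13.1% of all 34796 RefSeq promoters of this length hold it. The 8 genes were FAM225A, FAM225B, HCG20, JAZF1-AS1, LINC00426, LINC01063, PCAT7 and RNASEH2B-AS1, of which FAM225A and FAM225B are near-identical copies. Windows were matched by symbol, so the letters and CpG counted need not lie under the SKI or RUNX1 peak. How many windows do was not determined. The letters CAGACA, a SMAD-binding element, were in 5 of the 21 (23.8%, 10.6 to 45.1) and 9 of the 82 (10.98%). Beside these stand 16.9% of all promoters and 19.8% of lncRNA promoters, and neither motif contains the other. TATAAA, the TATA box, was in 3 of the 21 (14.3%) and 7 of the 82 (8.54%), beside 11.6% of all promoters and 15.1% of lncRNA promoters.

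**Figure D5:**
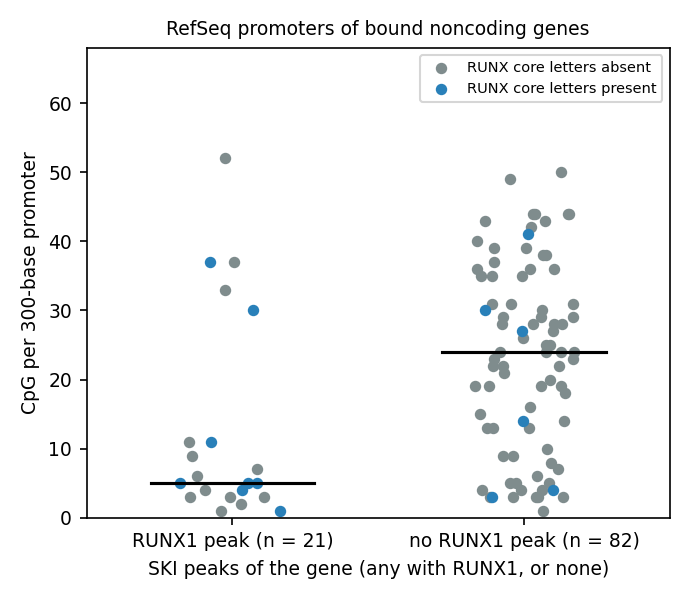
Number of CpG dinucleotides in the 300-base RefSeq promoter (GRCh38.p14) of 103 noncoding genes with a SKI peak, split by whether any SKI peak of the gene overlapped a RUNX1 peak; each point is 1 gene, blue where TGTGGT or its reverse complement is present, and lines are medians. The medians are 5 and 24, and 8 of the 21 genes with RUNX1 are blue against 6 of the 82 without. A promoter window need not lie under the peak.

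Known noncoding genes were read from 6 lists. Their counts stand beside 72.2% of all members in control cells and 18.1% with RUNX1 (72.3% and 23.9% of all peaks). The share of all annotated noncoding genes with a member peak was not available, so a list's gene count is no result about it. Some symbols occur in none of the 4 peak lists used. Those that occur are 9 of 14 microRNA hosts, 13 of 19 snoRNA hosts and 14 of 20 widely expressed or regulatory genes. They are also 11 of 19 myeloid, 9 of 18 HOX cluster and 6 of 24 partner genes. The microRNA host genes had the highest median of tags and of fold enrichment among the lists, with a member peak at 5 of 14 genes, 10 peaks in all, a median of 143 tags (range 40 to 270), 9 of 10 in control cells and none with RUNX1. MIR17HG, the host of the miR-17-92 cluster, had peaks of 258 tags (fold 20.33, -301 bp) and 270 tags (19.66, 1151 bp), which unmodified replicate 1 listed as 1 peak of 1721 tags and control cells as 2 peaks of 100 and 191 tags. DLEU2, the host of miR-15a and miR-16-1, had 3 peaks of 245, 150 and 68 tags. MIR181A2HG had 256 and 136 tags, both under 1 control-cell peak of 432 tags at 51.30. MIR155HG, the host of miR-155, had 40 and 50 tags and 1 control-cell peak of 140. MIR210HG had 58 tags and no control-cell peak. MIR142, which is outside this list, had a RUNX1 peak of 71 tags.

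Genes that host snoRNAs had a member peak at 9 of 19, SNHG5, SNHG7, SNHG8, SNHG11, SNHG12, SNHG15, SNHG16, SNHG17 and DANCR. All 9 peaks recurred in unmodified replicate 1, 2 of them (SNHG5 and SNHG8) in control cells, and none overlapped RUNX1. They held 34 to 93 tags (median 64, against 58 for all members) at a median fold enrichment of 9.43 (against 10.57). SNHG8 was the strongest by fold enrichment, with 27.34, 69.89 and 18.32 in unmodified replicates 2 and 1 and control cells. SNHG7 and SNHG12 each held 69 tags, with 8.34 and 7.97, and had no control-cell peak.

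Of 20 widely expressed or regulatory long noncoding RNAs, 8 had a member peak, 11 peaks in all, of which 10 recurred in control cells and 2 overlapped RUNX1. NEAT1, the scaffold RNA of paraspeckles, had 207 tags at its main peak (chromosome 11, 65189562 to 65190520), with fold enrichments of 23.56, 80.86 and 38.28 for SKI and 8.50 for RUNX1. The RUNX1 summit at NEAT1 lay 419 bp from that of SKI. MALAT1, an abundant RNA of nuclear speckles, had peaks of 124 tags (19.40) and 48 tags (11.02), the weaker with a RUNX1 peak of 66 tags at 8.54. CRNDE had 178 tags at 40.10 and 68 tags at 13.06, with 40.62 and 11.51 in control cells and no RUNX1. KCNQ1OT1, the antisense RNA of an imprinted cluster, had 35 tags and no control-cell peak, and LINC00657, also called NORAD, had 46 tags and 54 in control cells.

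Of 19 myeloid and blood-cell long noncoding RNAs 4 had a member peak, at tag counts of 37 to 89 (median 42, against 58 for all members). EGOT, named for eosinophil development, had 89, 1353 and 157 SKI tags in unmodified replicates 2 and 1 and control cells, and 123 RUNX1 tags at 38.69 with summits 4 bp apart. LINC00877 had 42, 565 and 70 SKI tags and 144 RUNX1 tags at 50.42, 31 bp away. HOTAIRM1, which lies in the HOXA cluster and is induced as myeloid cells mature, had 2 peaks of 42 and 48 tags, joined in control cells to 1 of 124 tags at 14.84, with no RUNX1. LUCAT1 had 37 tags at 21.99 and no control-cell peak. In the HOX clusters 3 of 18 noncoding genes had a member peak, HOTAIRM1, HOXB-AS1 (33 tags) and HOXD-AS1 (58 tags and 63 in control cells). Of 24 noncoding partners of haematopoietic and TGF-beta genes 3 had one, FOXN3-AS1 (41 tags), IL10RB-AS1 (65) and TRAF3IP2-AS1 (95 and 55), none with RUNX1.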

How the data were processed

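Peak lists of 4 of the 14 samples were used, and the other 10 samples were not analysed here. Groups came from the sample titles. The submitters' processing notes name the tools MACS 1.4, Bowtie2, deepTools and bcl2fastq and the builds GRCh37 and hg19, without saying what each did. The deposited lists are 1 per sample and hold, per the file headers, a −log10 p-value (5.00 or above in each list), a fold enrichment (a ratio to the background of the peak caller) and a count of tags for each peak. The sources used here give neither the total depth of a library nor the control set against it, and the lowest tag count in a list is 26 to 30. Position class, biotype, gene, TSS distance and summit were used as deposited; where on the peak the distance was measured from is not given.

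Peaks were overlapped by at least 1 bp, and a member was paired with the peak that covers most of it. Shares carry 95% Wilson intervals, and differences of shares combine these limits. Coding TSSs were rebuilt as the summit minus the deposited distance, and the median was taken for each transcript, whose estimates spanned a median of 55 bp. RefSeq tables of GRCh38.p14 served for promoter sequences and neighbours. No test was made over regions. The overlap and TSS steps were checked on simulated data.

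The members and lists were chosen with earlier results of these data known. By rule the text names the 20 genes with the most SKI tags, the 10 with the most RUNX1 tags, the 5 of most tags without a control-cell peak, and members of 6 gene lists, without Y-linked genes and 1 gene of X inactivation. The motifs, the CpG counts, the coding pairs, the genes absent from replicate 1 and the small RNA names were looked at after the peak values were seen, and genes named there were picked then. Alternatives were a stricter threshold, single biotypes, other distances and overlap rules, lists of equal length and leaving out lists. Software was Python 3.11.15 with numpy 2.4.6, scipy 1.17.1, pandas 2.3.3 and matplotlib 3.10.9.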

Additional observations from a re-analysis of the deposited data

How the results depend on the processing

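Each list is 1 library, peaks with fewer than 26 tags are in no list used here, and a fold enrichment ranks peaks within its own list. Of 92 alternative values for 12 results, 59 stayed within their interval or tolerance, 28 moved beyond it and 5 changed sign. The higher RUNX1 share of members than of coding promoters kept its sign under each alternative run, from 1.60 percentage points for processed_transcript alone and 3.46 for listed distances under 100 bp (added after seeing the data) to 9.54 without members whose summit is near a coding TSS (also added). Members with a coding TSS near were not run alone. Their share, 8.51% (5.31 to 13.4), was below the 11.3% of coding promoter peaks, and runs without them left the coding promoter peaks unchanged. The difference in recurrence in control cells did not keep its sign: it was -0.448 points with a −log10 p of at least 10, -8.01 for processed_transcript alone, -0.350 with summits within 250 bp and -3.20 for listed distances of 600 bp or more (also added). The ratio of median tags, noncoding over coding, was 0.985 at the stricter threshold and 1.02 otherwise in the main comparison. The cause of these changes was not tested. No paired analysis was possible because unmodified and control cells have no 2 replicate numbers in common and no result comes from a test.

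At the stricter threshold recurrence was 75.5% in control cells and 72.5% in both other SKI lists. By biotype there were 376 lincRNA, 410 antisense and 85 processed_transcript peaks, with a coding TSS near 10.9% and 31.7% of the lincRNA and antisense peaks. For processed_transcript, 62.4% recurred in control cells and in both lists, 100% in unmodified replicate 1, and 12.9% overlapped RUNX1. With listed distances within 500 bp of the TSS, whatever the class, 97.5% were in replicate 1, 15.4% overlapped RUNX1 and 27.2% were near a coding TSS. With summits within 250 bp of each other, 54.99% were in control cells, 71.3% in replicate 1, 44.4% in both and 15.4% with RUNX1. With SKI lists of equal length (14019 peaks) 80.7% were in replicate 1 and 64.8% in both, and with all lists at 5581 peaks 28.7% overlapped RUNX1. RUNX1 overlap was 20.9% without members whose summit is near a coding TSS. Leaving out 1 of the other SKI lists gave 72.2% to 96.3% in the remaining one. A coding TSS lay within 500 bp of 13.5% and within 5000 bp of 38.7%, and within 1000 bp of the summit, the point added after seeing the data, of 21.4%.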
